A study of Mus musculus with 225 samples.

Results

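Genes of the Hedgehog pathway, together with *Hand2*, were followed through single cells of the mouse forelimb at E12.5. They are *Ptch1*, *Gli1*, *Gli2*, *Gli3*, *Smo*, *Hhip* and *Hand2*, found by their names, 7 of 23165 genes with counts. All 7 were also among the 10948 genes of the deposited table of normalized values. The question followed here is in which autopod and zeugopod cells transcripts of the pathway's targets *Ptch1*, *Gli1* and *Hhip* were found, and how *Gli3* and *Hand2* were distributed over these cells and the remaining ones. Detection of a gene in a cell means 5 reads or more of it, and a cell in which *Ptch1*, *Gli1* or *Hhip* was detected is called a responding cell, which is a name for this read count and not a measurement of signaling.

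All cells came from pooled forelimbs of embryos heterozygous for *Hoxd11::GFP*, on a mixed C57Bl6CBAF1 background. In this allele a tau-GFP sequence was inserted into the coding sequence of *Hoxd11*, so that 1 copy of *Hoxd11* was inactive in every cell and there were no wild-type cells. Only the brightest GFP cells were captured, so that the cells stand for limb cells that had transcribed *Hoxd11* and not for the whole forelimb, and limb regions outside the *Hoxd11* domain were not sampled. The autopod is the part from which hands and digits form, and the zeugopod gives rise to the forearm. After the authors' quality filter 199 of 225 captured cells were retained, namely 59 autopod cells of run NXT0072 and 17 of NXT0143, and 58 zeugopod cells of NXT0142 and 65 of NXT0143. Only NXT0143 held both tissues. The labels name no embryo for any cell, so that each tissue was treated as 1 pooled sample. Its cells do not stand for separate embryos, and differences are given without p-values. Whether the runs of a tissue came from the same pool is not known. Intervals given for shares are exact binomial (Clopper-Pearson) 95% intervals. Reads carried no molecular identifiers, so these intervals cover counting error only.

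Reads on genes ranged from 186271 to 9437447 per retained cell, and the number of genes with at least 1 read from 1801 to 6162. The median number of such genes was 3528 and 3965 in the autopod cells of NXT0072 and NXT0143, and 4284 and 3745 in the zeugopod cells of NXT0142 and NXT0143. No retained or excluded cell had the same counts as another cell. The tissue labels were checked with *Hoxd13*, a gene of the presumptive digits, which was detected in 54 of 59 autopod cells of NXT0072 (91.5%), in 11 of 17 of NXT0143 (64.7%) and in 1 zeugopod cell (0.813%). It made up 1302 and 130.3 of every 1000000 reads on genes in these autopod groups. *Prrx1*, a factor of limb mesenchyme, was detected in 133 of the 199 cells, and 67 cells (33.7%) had at least 2 of 4 limb mesenchyme markers, among them 3 of the 17 autopod cells of NXT0143. None of the 199 cells had the required number of muscle, epithelial, endothelial or macrophage markers. For blood only 1 of 4 markers was counted, so that blood cells could not be looked for. No doublet caller was run.

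In the Hedgehog pathway a secreted ligand, in the limb bud mainly Sonic hedgehog from the posterior margin and later Indian hedgehog from differentiating cartilage, binds the receptor Patched 1. Without ligand, Patched 1 holds the membrane protein Smoothened inactive, and GLI3 is cut into a short repressor of transcription. When ligand is bound, Smoothened acts through the primary cilium, GLI2 and GLI3 stay in full-length forms that can activate genes, and *Gli1*, *Ptch1* and *Hhip* are transcribed as direct targets, the last encoding a protein that binds and retains the ligand. HAND2 is a bHLH transcription factor of the posterior limb bud, where it acts upstream of *Shh*, and in the early bud HAND2 and GLI3 restrict each other to the posterior and anterior parts. What follows concerns mRNA, and none of the values bears on how the GLI3 protein was processed.

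The 7 genes lie on 5 chromosomes of GRCm38. In the GENCODE vM21 annotation *Gli2* (ENSMUSG00000048402) is at chr1:118834132-119053619 on the minus strand, *Smo* (ENSMUSG00000001761) at chr6:29735503-29761365 on the plus strand, and *Gli1* (ENSMUSG00000025407) at chr10:127329882-127341974 on the minus strand. *Hand2* (ENSMUSG00000038193) at chr8:57320983-57324633, plus strand, and *Hhip* (ENSMUSG00000064325) at chr8:79965851-80058006, minus strand, share chromosome 8. *Gli3* (ENSMUSG00000021318) at chr13:15463235-15730026, plus strand, and *Ptch1* (ENSMUSG00000021466) at chr13:63508328-63573598, minus strand, share chromosome 13. All 7 are protein-coding genes. *Hand2* overlaps the antisense gene *Hand2os1* (chr8:57281117-57324233, minus strand), and 461 of 2351 annotated exon bases of *Hand2* (19.6%) also belong to an exon of *Hand2os1*. The libraries did not keep the strand of the RNA, and whether reads in such shared bases were counted for either gene is not given in the sources used here. Reads of the pair cannot be told apart there. *Gli1* overlaps the opposite gene *Arhgap9* in 62 of its 4995 exon bases, and *Arhgap9* had 265 reads in all retained cells against 16790 of *Gli1*. *A930032L01Rik*, with 7407 reads, lies inside *Ptch1* on the same strand and shares 0 of its exon bases.

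The promoters of *Gli3* and *Hand2* are shown because the cells were compared for these 2 genes, and because their sequences were searched for E-boxes, the class of motif to which bHLH factors bind. Sequences of 6 of the 7 genes were matched by symbol in RefSeq (GRCm38.p6). Each runs from 250 bases before to 50 bases after the RefSeq start, 5′ to 3′ on the strand of the gene, and capitals mark the letters CATCTG. The window of *Gli3* is chr13:15463473-15463772 and that of *Hand2* is chr8:57320733-57321032, both on the plus strand.
Gli3: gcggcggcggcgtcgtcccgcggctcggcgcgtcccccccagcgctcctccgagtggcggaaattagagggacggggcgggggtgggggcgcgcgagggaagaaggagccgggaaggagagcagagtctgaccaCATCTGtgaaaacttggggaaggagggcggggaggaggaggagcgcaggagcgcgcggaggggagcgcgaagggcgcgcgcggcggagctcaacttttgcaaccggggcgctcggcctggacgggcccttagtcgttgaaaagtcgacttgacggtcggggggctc
Hand2: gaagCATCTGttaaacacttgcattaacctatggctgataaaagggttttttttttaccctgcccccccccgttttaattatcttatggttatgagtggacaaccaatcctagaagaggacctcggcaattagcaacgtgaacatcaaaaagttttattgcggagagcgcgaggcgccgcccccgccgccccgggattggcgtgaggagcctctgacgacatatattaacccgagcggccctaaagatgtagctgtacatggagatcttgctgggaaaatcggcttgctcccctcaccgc

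Each of the windows holds CATCTG once, on the strand of the gene, starting at position −116 of *Gli3* and −246 of *Hand2* relative to the RefSeq start. Among the 32851 promoters of the same length in RefSeq, 17.2% have these letters on either strand, and the more general form CANNTG, which includes CATCTG, is found in 72.3%. *Hand2* has a further CANNTG site at position −235, whereas *Gli3* has no other. The windows of *Ptch1*, *Hhip*, *Smo* and *Gli2* hold no CANNTG. The GLI motif GACCACCCA was in 0 of the 6 promoters searched and in 0.253% of all promoters. Its core ACCACCC, which is part of the longer form, was found once, in *Gli2* at position −205 on the other strand, and in 4.61% of all promoters. GC content was 71% for *Gli3* and 50.3% for *Hand2*. A match is a description of the letters in these windows, and the data hold no measurement of binding.

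*Gli3* was the gene of the 7 that was detected in most cells. It was detected in 150 of 199 cells (75.4%, interval 68.8 to 81.2%), more cells than for 96.4% of the genes of the normalized table. *Ptch1* followed with 76 cells (38.2%, interval 31.4 to 45.3%), *Hand2* with 61 (30.7%, interval 24.3 to 37.6%), *Gli2* with 57 (28.6%, interval 22.5 to 35.5%) and *Smo* with 53 (26.6%, interval 20.6 to 33.3%). *Gli1* was found in 25 cells (12.6%, interval 8.30 to 17.98%) and *Hhip* in 9 (4.52%, interval 2.09 to 8.41%). The median gene of the normalized table was detected in 38 cells, so that *Gli1* and *Hhip* lay below it and the other 5 genes above it. Neighbours in this order from *Ptch1* to *Smo* had overlapping intervals, whereas the interval of *Gli3* lay above all others and those of *Gli1* and *Hhip* lay below that of *Smo*.

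**Figure D1:**
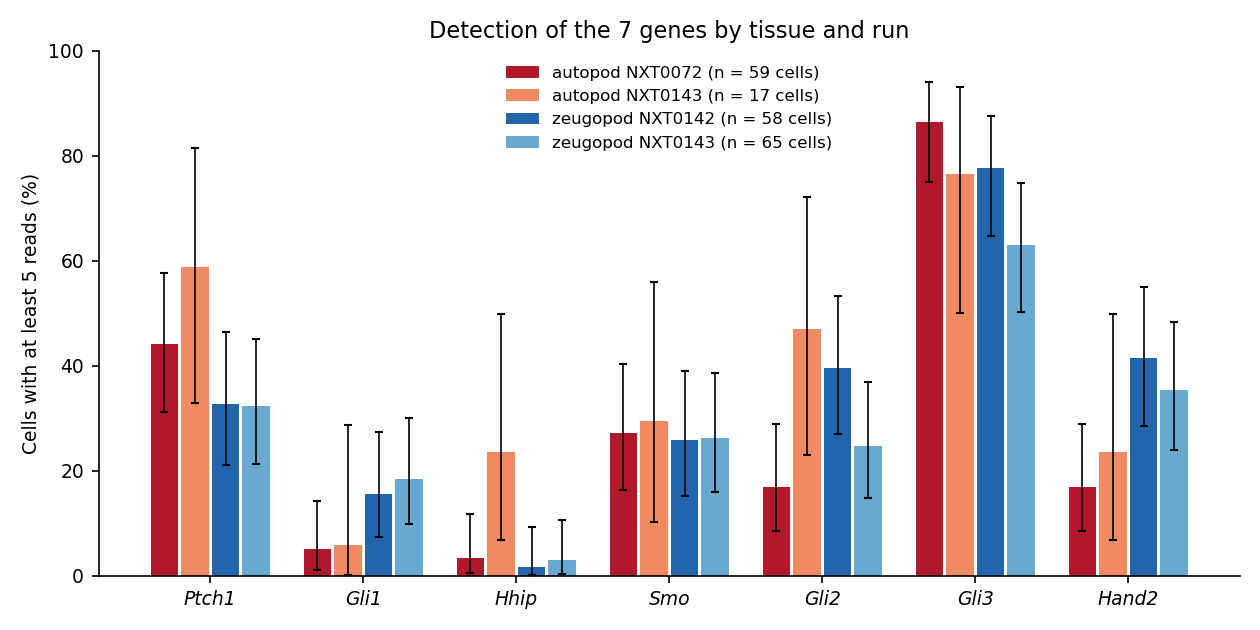
Percent of retained cells with each gene detected, that is with 5 reads or more, (vertical axis) in the 4 groups of cells given by tissue and run, with exact binomial 95% intervals as error bars. *Gli3* is the highest bar in every group, *Gli1* is higher in both zeugopod groups (15.5 and 18.5%) than in both autopod groups (5.08 and 5.88%), and *Hhip* is highest in the 17 autopod cells of NXT0143.

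*Ptch1*, which encodes the receptor and is also a target of the pathway, was detected in 26 of 59 autopod cells of NXT0072 (44.1%, interval 31.2 to 57.6%) and in 10 of 17 of NXT0143 (58.8%, interval 32.9 to 81.6%). In the zeugopod it was found in 19 of 58 cells of NXT0142 (32.8%, interval 21.01 to 46.3%) and in 21 of 65 of NXT0143 (32.3%, interval 21.2 to 45.1%). The shares of the 2 autopod groups were thus above those of the 2 zeugopod groups, with overlapping intervals. The normalized value, which is a count scaled by spike-ins and divided by gene length, went from the floor given to cells without reads, 0.114 for *Ptch1*, to 1943, 700.0, 674.9 and 287.9 in the 4 groups in the same order. The median was at the floor in 3 groups and 3.19 in the autopod cells of NXT0143, and *Ptch1* was not detected in most cells of those 3 groups. Summed over cells, *Ptch1* made up 73.3 and 317.5 of every 1000000 reads on genes in the 2 autopod groups and 63.1 and 45.8 in the 2 zeugopod groups, and in each group a single cell held between 24.98 and 37.5% of these reads.

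*Hhip*, the target that encodes the ligand-binding antagonist, was found in 2 of 59 autopod cells of NXT0072 (3.39%) and in 4 of 17 of NXT0143 (23.5%, interval 6.81 to 49.9%), and in 1 of 58 (1.72%) and 2 of 65 (3.08%) zeugopod cells of NXT0142 and NXT0143. The sum of its reads says little about the groups, because 1 autopod cell of NXT0072 held 99.7% of the reads of its group and 84.6% of all *Hhip* reads. *Smo*, which encodes the signal transducer of the membrane, was found at similar shares in all groups, namely 16 of 59 (27.1%), 5 of 17 (29.4%), 15 of 58 (25.9%) and 17 of 65 (26.2%) cells. Its level was not similar, since *Smo* made up 5.98 and 188.9 of every 1000000 reads on genes in the autopod cells of NXT0072 and NXT0143, and 13.1 and 72.9 in the zeugopod cells of NXT0142 and NXT0143. The cell with most reads held 59.5 and 45.3% of them in the autopod groups and 24.4 and 24.5% in the zeugopod groups. Where *Smo* was detected, the median normalized value was 6.48 and 224.5 in the autopod and 12.96 and 52.4 in the zeugopod, so that both were higher in NXT0143 within each tissue. In 17 cells that had a read of *Smo* the normalized value remained at the floor.

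*Gli1*, a target that is itself an activator, had higher shares in the zeugopod, opposite to *Ptch1*. It was found in 3 of 59 (5.08%, interval 1.06 to 14.2%) and 1 of 17 (5.88%, interval 0.149 to 28.7%) autopod cells, and in 9 of 58 (15.5%, interval 7.35 to 27.4%) and 12 of 65 (18.5%, interval 9.92 to 30.03%) zeugopod cells. The level differed further, since *Gli1* made up 0.468 of every 1000000 reads on genes in the autopod and 42.03 in the zeugopod. The highest normalized values were 27.3 and 4.69 in the autopod groups and 1886 and 383.4 in the zeugopod groups. Where it was detected, the median normalized value was 12.97 over the 4 autopod cells and 89.4 over the 21 zeugopod cells.

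*Gli2*, which encodes the main activator, was found in 10 of 59 autopod cells of NXT0072 (16.9%, interval 8.44 to 28.97%) and in 8 of 17 of NXT0143 (47.1%, interval 22.98 to 72.2%), and in 23 of 58 (39.7%, interval 27.1 to 53.4%) and 16 of 65 (24.6%, interval 14.8 to 36.9%) zeugopod cells. Its shares thus varied as much between runs of a tissue as between tissues. A single autopod cell of NXT0072 held 96.6% of the *Gli2* reads of that group.

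*Gli3*, whose product can act as a repressor, was found in 51 of 59 (86.4%, interval 75.02 to 93.96%) and 13 of 17 (76.5%, interval 50.1 to 93.2%) autopod cells and in 45 of 58 (77.6%, interval 64.7 to 87.5%) and 41 of 65 (63.1%, interval 50.2 to 74.7%) zeugopod cells. The median normalized value over all cells of a group was 110.2 and 185.9 in the autopod groups and 54.1 and 9.66 in the zeugopod groups, and the highest value was 3346, 2022, 1004 and 725.4. Both autopod medians were above both zeugopod medians, and every group held cells at the floor of 0.106.

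*Hand2* was found in 10 of 59 (16.9%, interval 8.44 to 28.97%) and 4 of 17 (23.5%, interval 6.81 to 49.9%) autopod cells and in 24 of 58 (41.4%, interval 28.6 to 55.1%) and 23 of 65 (35.4%, interval 23.9 to 48.2%) zeugopod cells. The highest normalized values were 1390, 200.2, 443.9 and 640.8, so that the cell with the highest value was an autopod cell although the shares were lower in the autopod. The overlapping *Hand2os1* had 50046 reads against 10607 for *Hand2* and was detected in 44 cells. Both were found in 24 cells, which are 39.3% of the *Hand2* cells and 54.5% of the *Hand2os1* cells. Among cells without *Hand2os1*, *Hand2* was found in 6 of 48 (12.5%) and 2 of 13 (15.4%) autopod cells and in 13 of 44 (29.5%) and 16 of 50 (32%) zeugopod cells, so that the order of the tissues held there too.

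**Figure D2:**
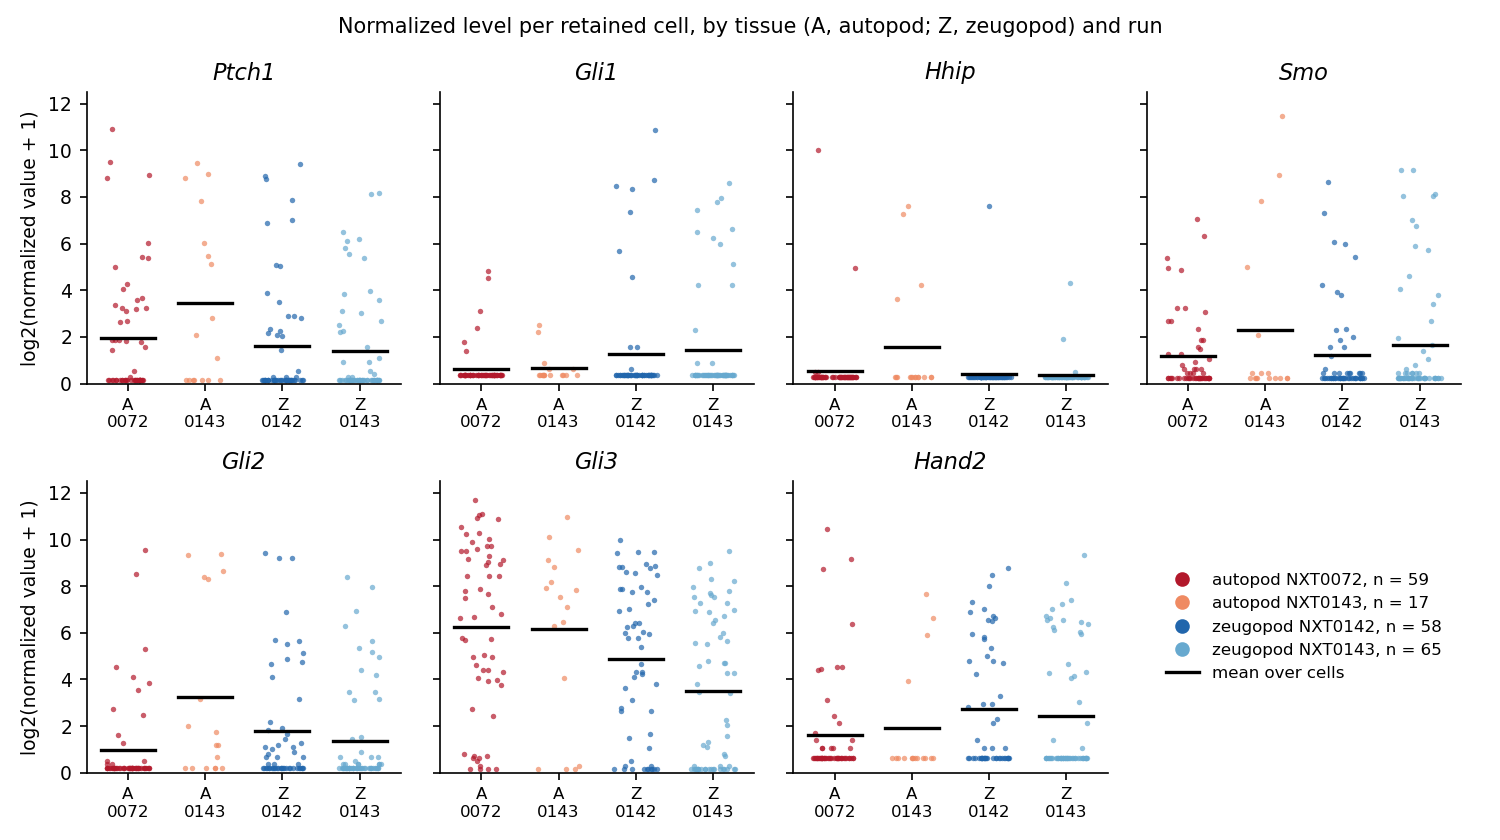
Level of each gene in each retained cell as log2(normalized value + 1) (vertical axis), by tissue and run (horizontal axis), with 1 point per cell and the mean over cells as a line. Over all retained cells the median lies at the floor for every gene but *Gli3*, whose group means lie between 3.49 and 6.24.

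The levels were compared between genes on this scale, which is per length. As the mean over the 4 groups of the mean log2(normalized value + 1), *Gli3* stood at 5.19 ± 1.30 (SD, n = 4 groups), *Hand2* at 2.18 ± 0.50, *Ptch1* at 2.11 ± 0.92, *Gli2* at 1.84 ± 0.99, *Smo* at 1.58 ± 0.51, *Gli1* at 0.996 ± 0.42 and *Hhip* at 0.71 ± 0.56. The lowest group of *Gli3*, at 3.49, was above the highest group of *Hand2*, at 2.74, whereas the ranges of every other pair of neighbours in this order overlapped. The place of *Hand2* before *Ptch1* carries no weight, because *Hand2* is the shortest of the genes and its floor, 0.558 against 0.114 for *Ptch1*, adds to its mean.

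Of the 7 genes, 1 differed by at least 1 on the log2 scale between the tissues over all retained cells. For *Gli3* the mean log2(normalized value + 1) was 6.22 ± 3.64 in autopod cells and 4.15 ± 3.35 in zeugopod cells (SD over cells), a difference of 2.08. The 4898 genes detected in 25% or more of the autopod or of the zeugopod cells served as background genes. Of these 6.06% were higher in the autopod by at least 1, and 99.3% had a lower difference than *Gli3*. The difference had the same direction within NXT0143, at 2.68, and between the autopod cells of NXT0072 and the zeugopod cells of NXT0142, at 1.35. In the first of these comparisons 18.4% of the 4898 genes were higher in the autopod by at least 1, and in the second 6.64%. The median over the 4898 genes was −0.12 over all cells, 0.18 within NXT0143 and −0.34 in the remaining comparison, below the value of *Gli3* in each. Within NXT0143, *Gli3*, *Ptch1*, *Gli2* and *Hhip* were past 1, that is 4 of the 7 genes.

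*Ptch1* was higher in the autopod in all 3 comparisons, by 0.78 over all cells, 2.05 within NXT0143 and 0.32 between the other runs. The size was thus larger with the 17 autopod cells of NXT0143, whose mean was 3.45 ± 3.64 (SD over cells) against 1.95 ± 2.67 in the autopod cells of NXT0072. *Hhip*, at 0.37, 1.18 and 0.13, followed the same order. In the opposite direction *Hand2* differed by −0.89, −0.52 and −1.12, and *Gli1* by −0.73, −0.78 and −0.67. Genes higher in the zeugopod by at least 1 made up 13.4% over all cells, 9.21% within NXT0143 and 24.3% between the other runs, where *Hand2* was 1 of them. *Hand2* had a higher difference than 16.2% of the 4898 genes over all cells. *Gli2* gave −0.07, 1.89 and −0.80, and *Smo* gave −0.01, 0.65 and −0.04, so that their direction depended on the run. *Gli1* and *Hhip* were not among the 4898 genes, as they were detected in too few cells of either tissue.

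After every cell was thinned at random to 500000 reads, which 191 of the 199 cells had, the shares of cells in which a gene was detected were lower but kept their order between the tissues for *Gli3* (83.3 and 65.5%), *Ptch1* (38.9 and 27.7%), *Gli1* (2.78 and 15.1%) and *Hand2* (8.33 and 29.4%). *Hhip* remained at 6.94 and 2.52%. *Gli2*, at 16.7 and 24.4% and before at 23.7 and 31.7%, also kept its order, and *Smo*, at 15.3 and 20.2%, changed it from 27.6 and 26.02% before thinning.

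**Figure D3:**
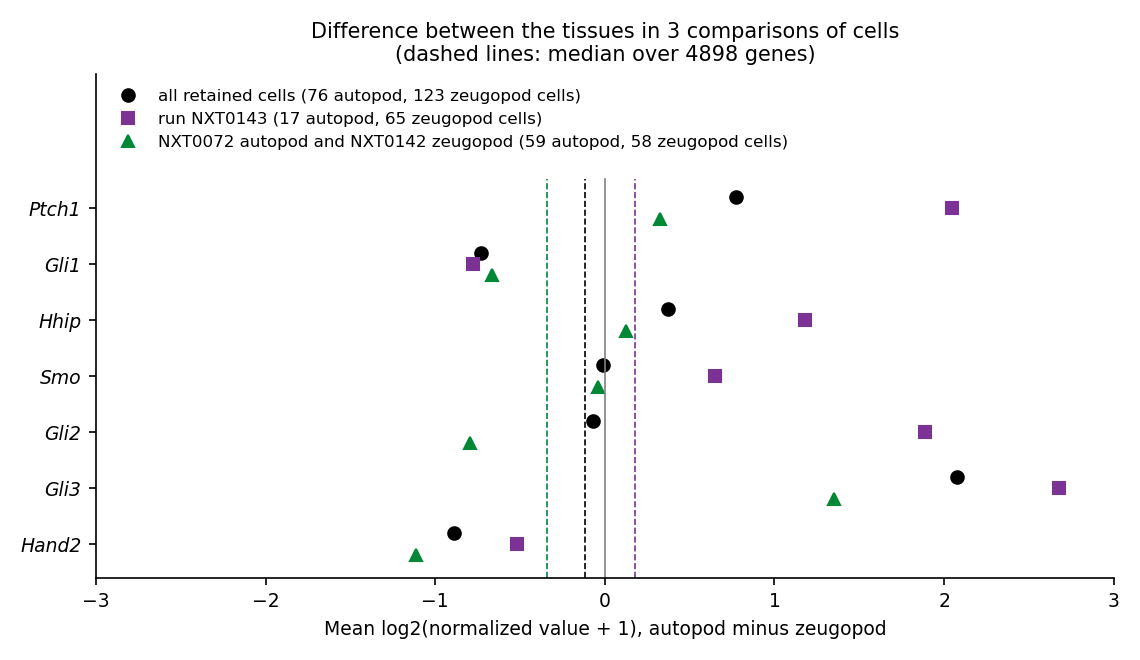
Difference of mean log2(normalized value + 1), autopod minus zeugopod (horizontal axis), for each gene in 3 comparisons of cells, with the median over 4898 genes as dashed lines. *Gli3*, *Ptch1* and *Hhip* lie to the right of 0 and *Gli1* and *Hand2* to the left in all 3 comparisons, while *Gli2* and *Smo* lie on either side.

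By the read count of *Ptch1*, *Gli1* and *Hhip*, 91 of 199 cells were responding (45.7%, interval 38.7 to 52.9%). They were 28 of 59 (47.5%, interval 34.3 to 60.9%) and 13 of 17 (76.5%, interval 50.1 to 93.2%) autopod cells of NXT0072 and NXT0143, and 24 of 58 (41.4%, interval 28.6 to 55.1%) and 26 of 65 (40%, interval 28.04 to 52.9%) zeugopod cells of NXT0142 and NXT0143. Over both runs the shares were 53.9% in the autopod (interval 42.1 to 65.5%) and 40.7% in the zeugopod (interval 31.9 to 49.9%), with overlapping intervals. With at least 2 of the 3 genes required the order turned, to 6.58% in the autopod and 11.4% in the zeugopod. The class had few cells close to its threshold. In 94 of the other cells none of the 3 genes had a read and in 14 the highest had 1 to 4 reads, while 3 responding cells had 5 to 9 reads of their highest gene.

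The class was made up mostly of cells with *Ptch1* and neither of the other targets, 58 of 91 cells. *Gli1* was found without the others in 9 cells and *Hhip* in 5, and no cell had all 3. In the autopod 32 of 41 responding cells had *Ptch1* only and 2 had *Ptch1* with *Gli1*. In the zeugopod 26 of 50 had *Ptch1* only, 13 had *Ptch1* with *Gli1* and 8 had *Gli1* only. *Ptch1* was present in 13 of the 21 zeugopod cells with *Gli1* (61.9%) and in 32.5% of all zeugopod cells, and *Gli1* was present in 32.5% of the 40 zeugopod cells with *Ptch1* and in 17.1% of all zeugopod cells. By run, *Ptch1* was found in 5 of 9 and 8 of 12 zeugopod cells with *Gli1*. In the autopod only 4 cells had *Gli1*, of which 2 had *Ptch1*. *Hhip* was found together with *Ptch1* in 3 cells and with *Gli1* in 1 cell.

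None of the ligands was in the normalized table. *Shh* had 0 reads in the 199 cells, where 3 counts of the total allow up to 1.51% of cells with such reads and the exact interval ends at 1.84%. Both limit cells with reads and not cells that express the gene. *Dhh* had 3 reads in all and was detected in 0 cells. *Ihh*, the ligand of differentiating cartilage, was detected in 3 cells, 1 autopod cell of NXT0072 and 2 zeugopod cells of NXT0143.

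*Gli3* was compared between responding and other cells within each of the 4 groups, so that neither tissue nor run differed between the classes. In the autopod cells of NXT0072 its mean log2(normalized value + 1) was 7.24 ± 3.24 (SD, n = 28 cells) in responding and 5.33 ± 3.78 (n = 31) in other cells, and 26 (92.9%, interval 76.5 to 99.1%) and 25 (80.6%, interval 62.5 to 92.5%) of these cells had it detected. In the autopod cells of NXT0143 the means were 6.15 ± 3.77 (n = 13) and 6.18 ± 4.32 (n = 4). In the zeugopod they were 5.44 ± 3.33 (n = 24) and 4.50 ± 3.32 (n = 34) in NXT0142, and 3.59 ± 3.22 (n = 26) and 3.42 ± 3.30 (n = 39) in NXT0143. The values of the classes overlapped over nearly their whole range in every group, from the floor of 0.106 to at least 515.2 in each class, and the means were higher in responding cells in 3 of the 4 groups. The median normalized values of responding and other cells were 344.0 and 30.5, then 185.9 and 183.7, in the autopod cells of NXT0072 and NXT0143. In the zeugopod they were 74.8 and 21.2 in NXT0142, and 6.74 and 10.09 in NXT0143, where the order was opposite to that of the means.

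With the runs of a tissue weighted equally, *Gli3* was higher in responding cells by 0.94 in the autopod and 0.56 in the zeugopod. The autopod value was 0.31 with *Ptch1* or *Gli1* only, 0.60 in thinned cells and 1.46 with cells pooled over runs. The zeugopod value was 1.08 in thinned cells. In the autopod most genes were higher in responding cells, with a median of 0.49 over 4897 genes, 27% of them higher by at least 1 and 5.11% lower by at least 1, and 70.3% of them had a lower difference than *Gli3*. In these autopod values NXT0143, with its 4 other cells, weighs as much as NXT0072, also where the 27% is used below. In the zeugopod the median was 0.04, 4.02% were higher and 2.57% lower by at least 1, and 84.5% had a lower difference than *Gli3*. The number of genes detected moved with the class in the autopod. Its median was 3757 in responding and 3112 in other cells of NXT0072, and 4365 and 3490 in those of NXT0143. In the zeugopod it was 4160 and 4284 in NXT0142 and 3946 and 3671 in NXT0143. The part of detection in the differences was not tested.

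*Hand2* had lower means in responding than in other cells in all 4 groups. They were 1.54 ± 2.06 and 1.70 ± 2.37 in the autopod cells of NXT0072, 1.84 ± 2.40 and 2.14 ± 3.01 in those of NXT0143, 2.04 ± 2.15 and 3.23 ± 2.92 in the zeugopod cells of NXT0142, and 2.14 ± 2.62 and 2.63 ± 2.72 in those of NXT0143 (SD over cells). *Hand2* was detected in 5 of 28 and 5 of 31, then 3 of 13 and 1 of 4, 7 of 24 and 17 of 34, and 7 of 26 and 16 of 39. The shares thus hardly differed in the autopod, whereas in the zeugopod 14 of 50 responding cells (28%, interval 16.2 to 42.5%) and 33 of 73 other cells (45.2%, interval 33.5 to 57.3%) had *Hand2*. With runs weighted equally the difference was −0.23 in the autopod, where 19.6% of the 4897 genes had a lower difference, and −0.84 in the zeugopod, where 4.33% had. In the autopod the direction turned with the definition of the class, to 0.16 when only *Ptch1* and *Gli1* were used and to 1.04 when at least 2 of the 3 targets were required, which 5 of 76 cells met. It was −1.05 with a minimum of 20 reads and −1.19 in thinned cells.

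**Figure D4:**
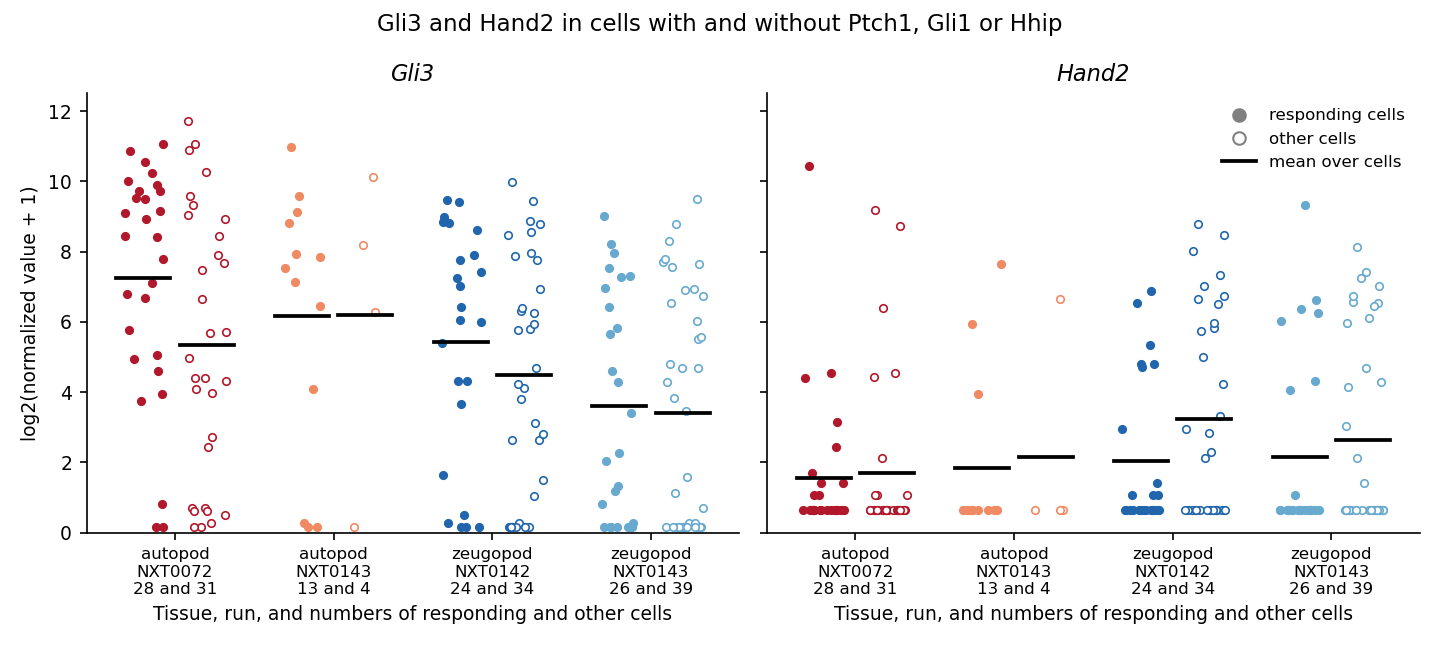
Level of *Gli3* (left) and *Hand2* (right) as log2(normalized value + 1) in each retained cell, for responding cells (filled points) and other cells (open points) of each tissue and run, with means as lines. The *Gli3* mean is higher in responding cells in 3 groups and level in the 17 autopod cells of NXT0143, and the *Hand2* mean is lower in responding cells in all 4 groups, while the points of the classes overlap throughout.

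For *Gli2* and *Smo* the direction was the same in both runs of a tissue only for *Gli2* in the zeugopod. There *Gli2* was lower in responding cells by 1.41 in NXT0142 and by 0.27 in NXT0143, a mean difference of −0.84, close to that of *Hand2*, and 4.45% of the 4897 genes had a lower difference. The size depended on the definition of the class. It was −0.23 with a minimum of 1 read and −0.28 with at least 2 of the 3 targets, where *Hand2* gave −0.64 and −0.41. In the autopod *Gli2* differed by 0.60 in NXT0072 and by −1.96 in NXT0143, where there were only 4 other cells. *Smo* differed by 0.67 and −0.23 in the autopod and by −0.19 and 0.38 in the zeugopod.

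Pairs of the 7 genes were then compared cell by cell. Most cells had 1 to 3 of them. In all, 68 of 199 cells had 2 of the genes, 50 had 3, 47 had 1 and 12 had none, while 2 cells, 1 in each autopod group, had 6 and no cell had all 7. In the autopod *Gli3* was present in 32 of the 36 cells with *Ptch1* (88.9%) and in 5 of the 6 with *Hhip* (83.3%), against 84.2% of all autopod cells. In the zeugopod it was present in 31 of the 40 cells with *Ptch1* (77.5%) and in 3 of the 3 with *Hhip*, against 69.9% of all zeugopod cells. Of the 25 cells with *Gli1* 21 were zeugopod cells, of which 14 had *Gli3* (66.7%), against 69.9% of all zeugopod cells. *Hand2* was present in 45 of the 150 cells with *Gli3* (30%) and in 30.7% of all cells. *Hand2* and *Ptch1* were found together in 17 cells. In the zeugopod 9 of 40 cells with *Ptch1* (22.5%) and 38.2% of all cells had *Hand2*, and in the autopod 8 of 36 (22.2%) and 18.4%. By run, *Hand2* was found in 3 of 19 zeugopod cells with *Ptch1* in NXT0142 (15.8%, against 41.4% of all cells of the run). In NXT0143 it was found in 6 of 21 (28.6%, against 35.4%), so that the low overlap was mostly that of NXT0142. *Hand2* was present in 8 of the 21 zeugopod cells with *Gli1* (38.1%), the share in all zeugopod cells being 38.2%.

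**Figure D5:**
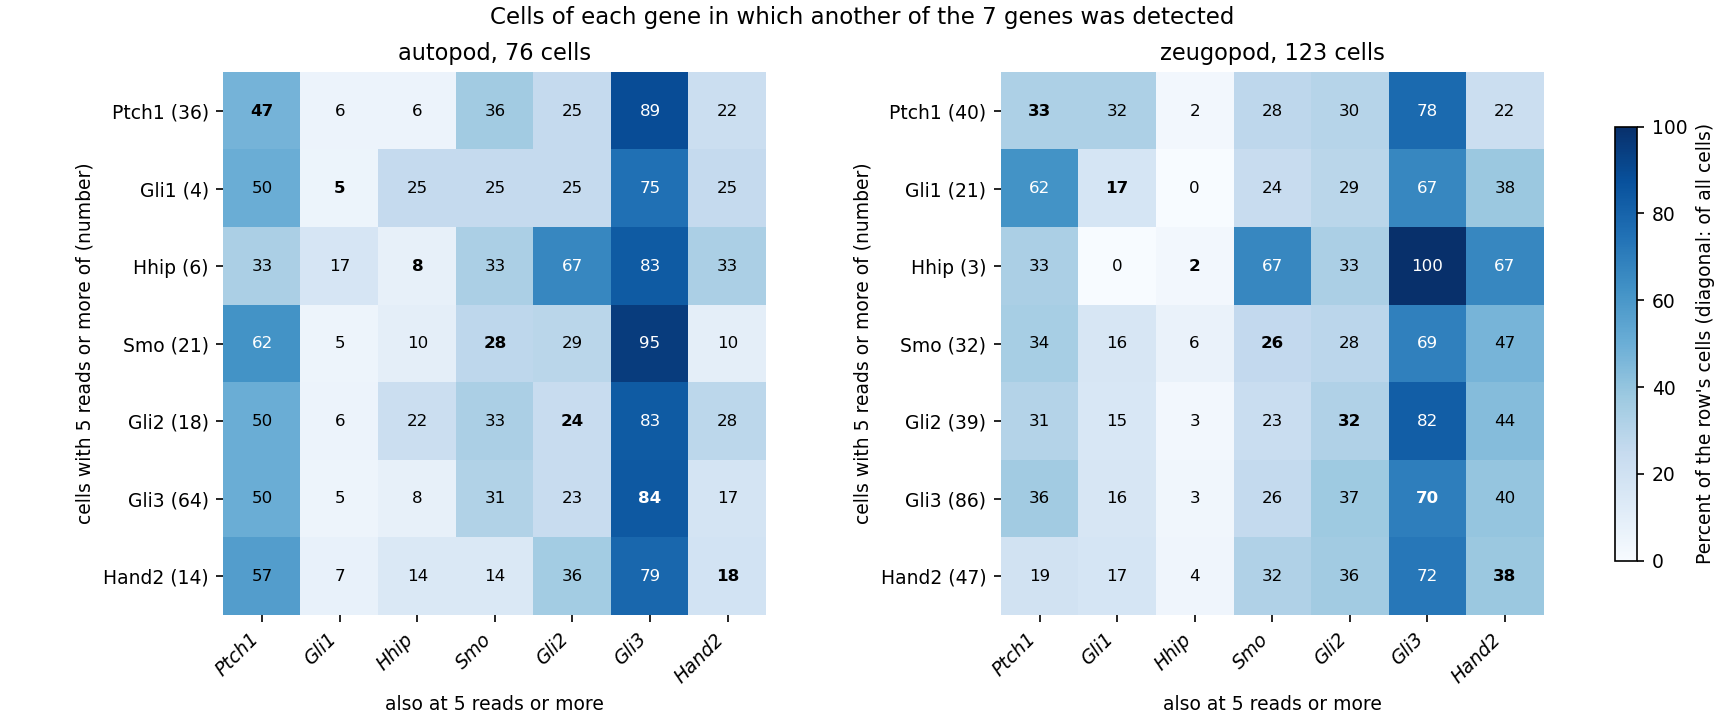
Percent of the cells with the row's gene detected that also had the column's gene detected, in the autopod (left) and the zeugopod (right), with the share of all cells on the diagonal in bold and the number of cells of each row in brackets. *Gli1* cells of the zeugopod have *Ptch1* in 62%, above the diagonal value of 33%, and *Ptch1* cells of the zeugopod have *Hand2* in 22%, below the diagonal value of 38%.

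Spearman's rank correlations of log2(normalized value + 1) were computed within each of the 4 groups for the 21 pairs. They describe cells that share a library preparation and differ in depth, and many values are tied at the floor. The highest mean over the groups was that of *Ptch1* and *Gli1*, 0.34, with 0.33 and 0.51 in the autopod groups (n = 59 and 17 cells; the second was 0.016 in thinned cells, and 0 of the 17 cells had both genes detected) and 0.12 and 0.39 in the zeugopod groups (n = 58 and 65). It was 0.33 given the number of genes detected, and 0.17 in thinned cells, where *Smo* and *Gli3* stood higher at 0.18. *Ptch1* and *Gli3* gave 0.18 with a range over groups from 0.15 to 0.23, and 0.13 from reads per 1000000 (CPM) and 0.11 in thinned cells, *Smo* and *Gli3* 0.21 (0.0010 to 0.49) and *Gli2* and *Gli3* 0.20 (0.10 to 0.28). In thinned cells the mean of *Gli2* and *Gli3* was 0.095, with −0.073 in the autopod cells of NXT0072. *Gli3* and *Hand2* gave −0.02 (−0.12 to 0.07), and *Ptch1* and *Hand2* 0.01 (−0.17 to 0.13). No pair with *Hand2* had a mean above 0.05.

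Among the 7 *Hox* genes of the distal limb that were set beside *Ptch1*, *Gli3* and *Hand2*, the highest coefficients with *Ptch1* were those of *Hoxd11* and *Hoxd13* in the autopod. *Hoxd11*, the gene that carries the GFP insertion, gave 0.46 and 0.43 in the autopod cells of NXT0072 and NXT0143 and 0.03 and 0.14 in the zeugopod cells of NXT0142 and NXT0143. *Hoxd13* gave 0.42 and 0.51 in the autopod groups, and was near absent in the zeugopod. With *Gli3* the coefficients in the autopod were 0.36 and 0.26 for *Hoxd11* and 0.34 and 0.46 for *Hoxd13*. With *Hand2*, *Hoxd13* gave 0.35 and 0.27 and *Hoxd12* 0.33 and 0.45 in the autopod. Compared as classes, 3 of the 7 *Hox* genes were higher by at least 1 in responding autopod cells, namely *Hoxd13* by 3.12, *Hoxd12* by 2.597 and *Hoxd11* by 2.20, where 27% of background genes were. In the zeugopod 0 of the 7 were, near the 4.02% of background genes there, so that the counts of the tissues are not set against each other.

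Of 4880 genes ranked by the mean of the 4 within-group coefficients, the genes most like *Ptch1* were *Stxbp4* (0.34), *Ivns1abp* (0.33), *Tmem5* (0.32), *Hoxd13* (0.30) and *Eif2s3y* (0.30). Over the 4 groups the coefficients went from 0.18 to 0.41 for *Stxbp4*, from 0.13 to 0.47 for *Ivns1abp*, from 0.010 to 0.64 for *Tmem5* and from 0.17 to 0.65 for *Eif2s3y*. In the paper *Xist* and genes of the Y chromosome served to pick out cells of a female embryo. The part of sex or embryo in these coefficients was not tested. The mean of *Hoxd13* includes the zeugopod groups, in which it was detected in 1 cell, with coefficients of −0.0079 and 0.30 that rest on values at or near the floor. Those most like *Gli3* were *Cdc73* (0.40), which encodes a subunit of the PAF1 complex, *Nfib* (0.37), which encodes a nuclear factor I protein, *1700020I14Rik* (0.35), *Topors* (0.35) and *Usp37* (0.34). Here they went from 0.14 to 0.75 for *Cdc73*, from 0.042 to 0.60 for *Nfib*, from 0.16 to 0.70 for *1700020I14Rik*, from 0.16 to 0.63 for *Topors* and from 0.21 to 0.50 for *Usp37*. For *Hand2* they were *Eya3* (0.36), *Gsta4* (0.33), *Ctnna1* (0.33), which encodes alpha-catenin, *Clic1* (0.33) and *Zfp664* (0.33), with the lowest group at 0.20, for *Gsta4*, and the highest at 0.73, also for *Gsta4*. The coefficients of several genes thus differed widely between groups, none of the means was above 0.40, and none of the 3 genes was among the 5 genes most like another of them.

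The other genes of the pathway were taken from lists by role. Some of the listed genes were detected in fewer cells than the background genes, so that the shares set beside them are not over genes of like detection. Among receptors and co-receptors, 5 genes of the normalized table were compared. *Gas1*, a co-receptor that binds the ligand, was the most frequent, in 57 of 76 autopod cells (75%) and 84 zeugopod cells (68.3%). *Boc*, another co-receptor, was found in 25 (32.9%) and 69 (56.1%) cells and differed by −1.24 over all cells, 0.14 within NXT0143 and −1.92 between the other runs. It was the 1 gene of the 5 past a difference of 1 over all cells, where 13.4% of background genes were higher in the zeugopod by as much. In responding cells *Boc* was lower by 1.51 in the autopod, with 0.92 in NXT0072 and 2.09 in NXT0143 with its 4 other cells, where 5.11% of background genes were lower by at least 1. In the zeugopod its mean difference of 1.37 came from 2.89 in NXT0142 and −0.15 in NXT0143, so that the direction turned between runs, and *Cdon* was lower by 1.09 in the zeugopod, as were 2.57% of background genes by at least 1. The 4 genes of ligand processing and release that were in the table, among them *Disp1* and *Hhat*, had 0 differences past 1 between the tissues or, with runs weighted equally, between the classes. Of background genes 6.06% were higher and 13.4% lower by at least 1 in the autopod over all cells. In responding cells 27% were higher and 5.11% lower in the autopod, and 4.02 and 2.57% in the zeugopod. A count of 0 among 4 genes lies near most of these shares. In the zeugopod *Disp1* differed between responding and other cells by 1.21 in NXT0142 and by −1.69 in NXT0143.

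Among 12 genes of transduction, from *Sufu*, which holds GLI proteins in the cytoplasm, to protein kinase A subunits, 1 was past 1 between the tissues over all cells, near the 6.06% of background genes that were higher in the autopod. This was *Cul3*, the cullin that acts with SPOP, with 1.10, and with 1.44 and 0.88 in the comparisons by run. *Cul3* and *Prkacb* were higher in responding autopod cells by 2.34 and 1.85, 2 of 12 genes where 27% of background genes passed. *Sufu*, *Kif7* and *Gpr161* differed between the tissues by 0.48, 0.16 and 0.36. *Prkaca*, a catalytic subunit of protein kinase A, differed by 1.78 within NXT0143 and by −1.29 between the other runs, so that its direction turned. Of 5 genes of the primary cilium, 0 were past 1 between the tissues over all cells, *Ift88* was higher in responding autopod cells by 1.27, with 0.62 in NXT0072 and 1.92 in NXT0143 with its 4 other cells, where 27% of background genes were higher by at least 1, and *Kif3a*, a motor subunit, was lower in responding zeugopod cells by 1.31, with 1.07 and 1.55 in its runs, where 2.57% of background genes were lower by at least 1.

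Of 11 genes listed as limb targets of Hedgehog signaling, 9 were in the normalized table. *Grem1* was detected in 9 cells and *Foxf1* in 1. Between the tissues over all cells, *Jag1*, a Notch ligand, was higher in the autopod by 2.37, with 2.27 and 2.23 in the comparisons by run. *Osr1*, a factor of proximal and connective tissue mesenchyme, was lower in the autopod by 2.24, with −1.45 and −2.21, and *Tbx3* was lower by 1.18, with −2.00 and −0.52. Of the 9 genes 1 was thus past 1 in the autopod and 2 in the zeugopod, where 6.06 and 13.4% of background genes were, and the median was −0.15. In responding cells of the autopod 4 of the 9 were higher by at least 1 (*Cdk6* 2.38, *Osr1* 1.46, *Bmp2* 1.42 and *Ccnd1* 1.34), against 27% of background genes, with a median of 0.42 against 0.49. The count rested on NXT0143 with its 4 other cells, where *Cdk6* differed by 4.28, *Osr1* by 2.49 and *Ccnd1* by 2.21, while NXT0072 gave 0.48, 0.42 and 0.48. In NXT0072 alone *Bmp2* (2.02) and *Jag1* (1.87) were past 1, and *Jag1* was −2.97 in NXT0143. In the zeugopod 1 of the 9 was, *Cdk6* with 1.95, against 4.02% of background genes, with a median of 0.13 against 0.04. *Cdk6*, a partner of cyclin D proteins, was higher in responding cells in all 4 groups, by 1.87 and 2.03 in the zeugopod runs.

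Anterior limb factors were rare, with *Alx4* detected in 2 cells and *Irx3* and *Irx5* in 4 cells each, and the 3 of 6 in the table had 0 differences past 1 over all cells, where 6.06% of background genes were higher and 13.4% lower in the autopod by as much. Between the other runs *Pax9* differed by −1.02, where 24.3% of background genes were lower by at least 1. Among the relatives and bHLH partners of HAND2, *Hand1* was detected in 1 cell. *Twist1*, which forms dimers with HAND2, was found in 43 of 76 autopod cells (56.6%) and 21 zeugopod cells (17.1%), the reverse of the order of *Hand2*, and differed by 2.44 over all cells and by 1.12 and 2.49 in the comparisons by run. The E protein gene *Tcf4* was detected in 98.7% of autopod and 95.9% of zeugopod cells. In responding autopod cells 3 of the 5 genes were higher by at least 1, *Tcf4* by 2.26, *Twist1* by 1.28 and *Tcf3* by 1.11, where 27% of background genes were. In NXT0072 they differed by 0.46, 0.33 and 0.71, and in NXT0143, with 4 other cells, by 4.06, 2.24 and 1.52. In the zeugopod 0 of the 5 were past 1, where 4.02% of background genes were higher and 2.57% lower, so that such a count lies near the background.

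The genes were also set beside markers of cell types and states. Cells with at least 3 of 5 chondrogenic markers made up 35 of 76 autopod cells and 38 zeugopod cells (30.9%). *Hand2* was found in 3 of the 35 chondrogenic autopod cells (8.57%) and in 11 of the 41 others (26.8%), and in 9 of 38 (23.7%) and 38 of 85 (44.7%) in the zeugopod, the same order in both tissues. *Ptch1* was found in 13 of 35 (37.1%) and 23 of 41 (56.1%) in the autopod and in 17 of 38 (44.7%) and 23 of 85 (27.1%) in the zeugopod, the opposite order. *Gli3* was found in 85.7 and 82.9% in the autopod and in 78.9 and 65.9% in the zeugopod. Of the responding cells 15 of 41 in the autopod (36.6%) and 17 of 50 in the zeugopod (34%) were chondrogenic, and of the other cells 20 of 35 (57.1%) and 21 of 73 (28.8%). The summed level of the 5 markers ran from 18.2 to 23197 per 1000000 reads in responding and from 0.580 to 27802 in other autopod cells, and from 0 to 11728 and 11930 in the zeugopod. The part of these cells in the differences of *Gli3* and *Hand2* was not tested.

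All 17 autopod cells with at least 2 of 3 interdigit markers had *Gli3*, 10 of them had *Ptch1* (58.8%, against 44.1% of the other 59) and none had *Gli1*. These interdigit-marker cells were 11 of the 59 autopod cells of NXT0072 and 6 of the 17 of NXT0143. Of all autopod cells of these runs, 44.1 and 58.8% had *Ptch1*. The part of the run in the *Ptch1* shares was not tested. Over all autopod cells *Gli3* was detected in 84.2% and *Gli1* in 5.26%, so that the absence of *Gli1* from 17 cells says little. At least 2 of 3 tendon markers were found in 11 zeugopod cells of NXT0142 and 6 of NXT0143, and for these the runs went in opposite directions. *Gli3* was found in 9 of the 11 (81.8%, against 76.6% of the other cells of the run) and in 1 of the 6 (16.7%, against 67.8%). *Hand2* was found in 3 (27.3%, against 44.7%) and 4 (66.7%, against 32.2%), and *Ptch1* in 6 (54.5%, against 27.7%) and 1 (16.7%, against 33.9%). Cells with at least 3 of 4 cell cycle markers had *Hand2* in 7 of 18 (38.9%) in the autopod, against 12.1% of the other 58, and in 13 of 23 (56.5%) in the zeugopod, against 34% of the other 100. These *Hand2* shares are pooled over runs. The cycling cells were 16 of 59 and 2 of 17 autopod cells of NXT0072 and NXT0143, and 14 of 58 and 9 of 65 zeugopod cells of NXT0142 and NXT0143. Cycling cells were 21.95 and 25.7% of responding and other autopod cells and 20 and 17.8% of responding and other zeugopod cells. No cell had the required number of markers of the osteoblast lineage, and *Runx2* alone was detected in 20 cells.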

How the data were processed

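Single cells were captured and their full-length cDNA was sequenced as unstranded 75-base reads, 1 library per cell, and 225 libraries were used here. The authors aligned reads with Bowtie2 in local mode to mm10 (GRCm38) and counted them on Ensembl genes, and the deposited table of raw counts holds whole numbers for 23165 genes and 92 spike-ins. For the deposited normalized signal the authors kept cells with more than 2000 genes and few spike-in reads, scaled counts by spike-in size factors and divided by gene length, for 10948 genes, those with reads in 10% of the cells of a tissue and *Hox* genes added by hand. The authors had first centred the size factors on the mean of each batch. Tested on the 10934 genes with a cell at 0 reads, each value was a whole number plus 1 over the length in kb, within a tolerance of 1e-06, so that a cell without reads sits at a floor above 0. Of the retained cells 197 had more than 2000 genes by the counts used here. The spike-in rows of the count table follow another order of cells than the column names and were not used. Whether this order bears on the scaling of the deposited normalized values was not tested.

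Cells were grouped by the tissue and run in the labels. Reads on genes set the depth of each cell, and shares carry Clopper-Pearson 95% intervals, which cover counting error only. Levels were compared as log2(normalized value + 1), a scale that understates differences of low genes, and a difference of 1 was counted. Cells of a tissue were treated as 1 pool, so no test was run and the spread between embryos is not known. Responding cells were compared with other cells within runs, and the runs were weighted equally. Thinning to 500000 reads used a fixed seed. The 7 genes, the gene lists and the markers were chosen with earlier results of these data known. Genes named beside them came from these lists, of which not every member is named, and the markers, and were otherwise the 5 genes with the highest mean rank correlation to *Ptch1*, *Gli3* or *Hand2*. The alternatives were other pseudocounts, CPM, thinned counts, single runs, and other definitions of a responding cell. The code for differences was tested on simulated data. Python 3.11.15, numpy 2.4.6, pandas 2.3.3, scipy 1.17.1 and matplotlib 3.10.9 were used. No doublets were removed.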

Additional observations from a re-analysis of the deposited data

How the results depend on the processing

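Of 153 alternative values, 18 moved beyond the spread of the value reported, 19 turned in direction and the others stayed within that spread. The spread was the SD of the 2 comparisons by run for a difference, the exact interval for a share and the SD over the 4 groups for a coefficient. Where the value reported is the mean of its 2 runs, each run alone lies within that SD by construction, so that for these values staying within it says little. The difference of *Gli3* between the tissues and the lower *Hand2* of responding zeugopod cells kept their direction in all alternatives run for them, from 1.35 to 2.68 and from −1.19 to −0.41. In run NXT0143 alone, the differences autopod minus zeugopod were 2.05 for *Ptch1*, 1.18 for *Hhip*, 0.65 for *Smo* and 1.89 for *Gli2*. The value of *Gli1* was −0.92 as log2(CPM + 1), −0.91 after thinning, −0.86 with a pseudocount of 0.1 and −0.47 with a pseudocount of 10. With a pseudocount of 10, *Hand2* gave −0.47 and *Gli2* 0.052, and with 0.1 *Smo* gave 0.066. The share of responding autopod cells was 42.1% with a normalized value of 5 in place of 5 reads. With at least 2 of the 3 genes required it was 6.58% in the autopod and 11.4% in the zeugopod, the reverse order of the tissues. Under that requirement responding minus other cells gave 1.42 for *Gli3* in the zeugopod, 1.04 for *Hand2*, 3.76 for *Gli2* and −0.034 for *Smo* in the autopod, and −0.46 for *Smo* in the zeugopod. With *Ptch1* or *Gli1* only, *Hand2* gave 0.16 and *Gli2* 0.11 in the autopod, and *Smo* −0.055 in the zeugopod. *Hand2* in the autopod was −0.36 as log2(CPM + 1), −1.05 with 20 reads, −1.19 after thinning and −0.11 with runs pooled. *Gli2* in the autopod was 0.61 with runs pooled and 0.60 in NXT0072 alone. In NXT0143 alone the autopod gave −0.029 for *Gli3* and −0.23 for *Smo*. *Smo* in the zeugopod was −0.19 in NXT0142 alone and −0.060 with a pseudocount of 10. The mean coefficient of *Ptch1* and *Hand2* was −0.0038 from CPM and −0.034 after thinning. The cause of these changes was not tested.

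The limits lie in the number of runs and in the pooling of embryos. Tissue and run are shared only in NXT0143, whose autopod cells number 17, of which 4 were not responding. *Hhip* levels rest on single cells, and autopod *Gli1* was detected in 4 cells. No paired analysis was possible because the cells of the groups are separate cells whose numbers do not pair them.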

Other observations

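The 26 captured cells that the authors' filter left out had between 17 and 2926028 reads on genes. *Ptch1* was detected in 1 of them with 15 reads, *Smo* in 1 with 60 reads and *Gli3* in 3, and *Gli1*, *Gli2*, *Hhip* and *Hand2* were detected in 0. By the read count used for retained cells, 1 of the 26 was responding.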
